A study of Mus musculus with 3 samples.

Results

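The set comprised 42 genes of macrophages and other myeloid cells, listed by name. The list was drawn up with earlier results of these data known. A gene counted as measured when the RefSeq transcript accession of an array probe, without its version, mapped to it or to its current name (Emr1 is now Adgre1, and Sfpi1 is now Spi1). In all, 41 of the 42 were measured among 15394 genes that were well above background on at least 1 array. The probe accession for Cd68, a lysosomal membrane protein of macrophages, was not matched, so its expression was not analysed here.

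Macrophages are phagocytes of the mononuclear lineage. They depend on signals through the receptor Csf1r, take up opsonised material through Fc and complement receptors whose signals pass through adaptors with tyrosine motifs, and degrade it with lysosomal enzymes and the phagocyte oxidase. Their identity is set largely by the transcription factor PU.1, encoded by Sfpi1. After myocardial infarction they enter the infarcted wall in large numbers, clear dead muscle and exchange signals with fibroblasts.

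Gene expression was measured with 1-colour Agilent arrays in mouse cardiac cells that the labels call myofibroblasts, the contractile, matrix-producing cells of the healing infarct. The donors were male C57BL/6J mice with no further genetic change given. Their age is labelled as 8 weeks for the samples and as 10 weeks at the operation in the treatment notes. Hearts were taken 3 days after the left anterior descending coronary artery had been tied off for good, and were digested with collagenase and elastase. Cells that had attached to plastic overnight were passed over a magnetic column, and the fraction lacking CD45, the leukocyte surface protein encoded by Ptprc, was kept as myofibroblasts. All groups shared these steps. Adherent cells were grown on plastic plates. Non-adherent cells were detached with trypsin and kept in suspension on plates to which cells attach poorly. Re-adherent cells were put back on plastic after suspension. The study compared these states to find genes that respond to the substrate. The study reports that cell numbers fell strongly during suspension, which it attributes to death of detached cells. The remaining cells were the ones plated again. The states were collected in succession, so the state, the total time in culture and the survival of cells cannot be told apart. Whether cell types survived suspension unequally was not tested.

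Each state had 1 array, hybridised with RNA mixed over hearts. The spread between cultures is therefore unknown, and no test is given. All arrays lay on 1 slide and were scanned together, and the labelling batch was not given. Between 53.9% and 59.9% of the 59305 non-control spots per array were well above background. Levels below are multiples of the 75th percentile of the array's processed signal, and differences are on the log2 scale with the error that the scanning software assigned to the spots of both arrays. That error was 0.20 to 0.22 for the 41 genes. It covers spot noise and not the variation between cultures. Levels are compared between arrays for the same probe, and levels summed over a list add probes of unlike brightness, so that bright probes weigh most.

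The labelled cell type was checked against 15 fibroblast and myofibroblast markers, each well above background throughout. Their summed level was 3150 on the adherent, 1270 on the non-adherent and 3050 on the re-adherent array. Acta2, the smooth muscle actin that marks myofibroblasts, stood at 668, 6.72 and 638 in the same order. The markers did not move together. In suspension 7 of the 15 were lower by over 2-fold, against 14.7% of all genes, and 2 were higher by over 2-fold, against 17.2%. The median difference was -0.94. The matrix proteoglycan genes Lum and Dcn stood at 3.56 and 1.69, Col3a1 at 0.19, Postn at -0.12 and Pdgfrb at -0.43. The gate marker Ptprc was also well above background on every array, at 0.546, 3.50 and 0.982, although the cells had been collected as negative for CD45 protein. According to the study, nearly all of the sorted cells stained for smooth muscle actin protein. In RNA from whole cultures, more cells of a type and more RNA per cell cannot be told apart.

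Nearly the whole set was higher in suspension than on plastic. Of the 41 genes, 40 were higher on the non-adherent array, against 46.8% of all genes, and 39 were over 2-fold higher, against 17.2%. The median difference was 2.77, with quartiles of 2.55 and 3.01, where the median over all genes was -0.07. Differences over 4-fold were seen for 36 genes (7.61% of all genes) and over 8-fold for 11 genes (2.56%). None was over 2-fold lower (14.7% of all genes). Every one of the 41 genes was well above background on each array and no spot was saturated, so none of these values is a bound.

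**Figure D1:**
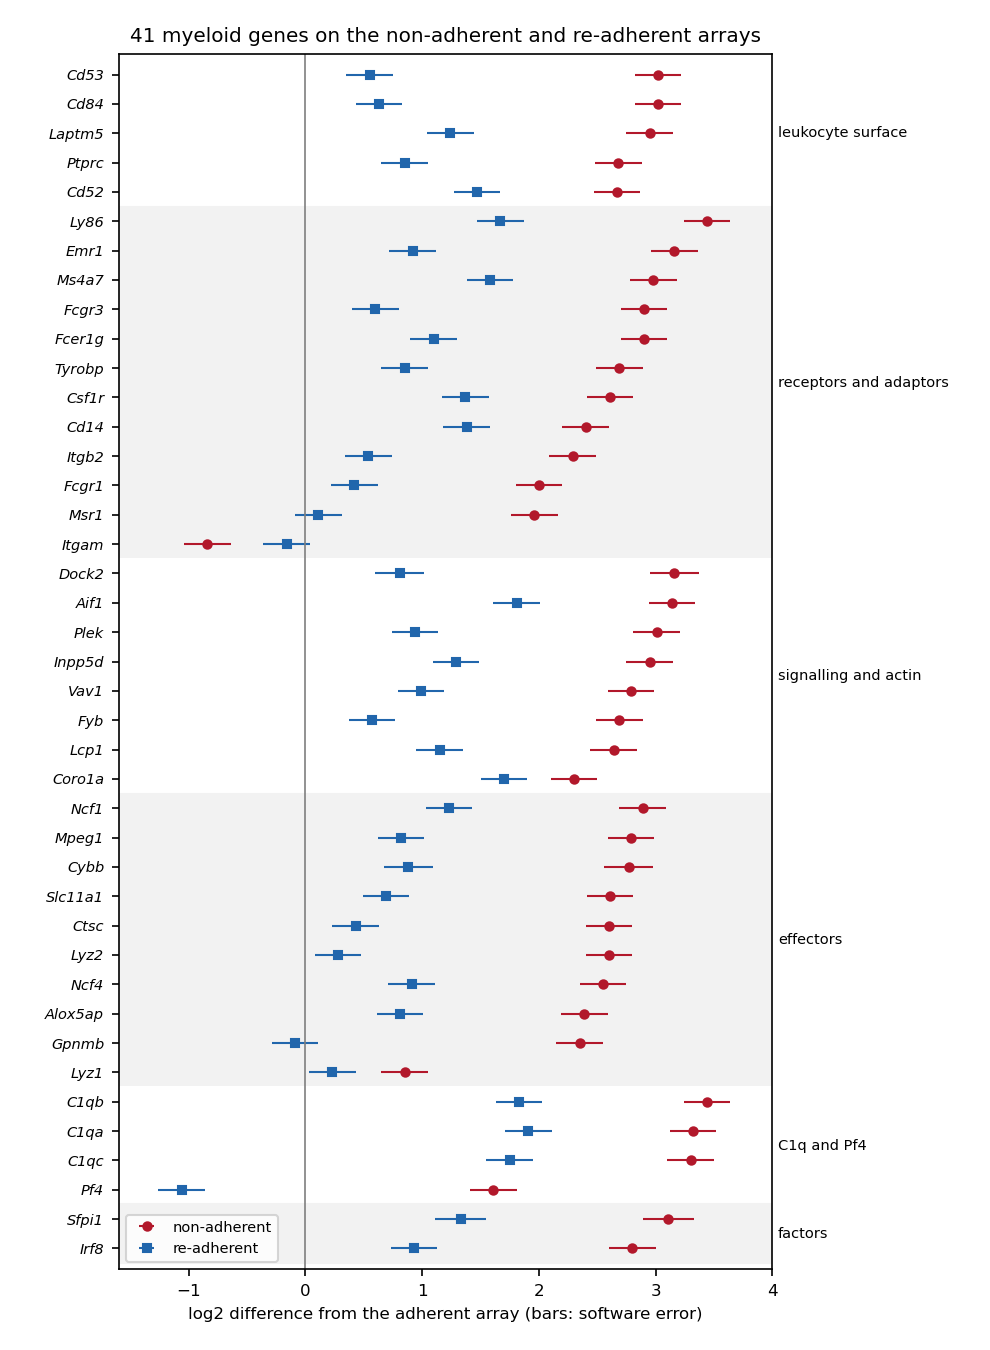
Log2 difference of each of the 41 genes from the adherent array, for the non-adherent (red circles) and re-adherent (blue squares) arrays, grouped by role, with bars for the software error. Red points lie between 1.61 and 3.44 except for Itgam at -0.84 and Lyz1 at 0.85, and blue points lie between -1.06 (Pf4) and 1.91 (C1qa).

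The 5 leukocyte surface and membrane genes moved within a narrow band in suspension, from 2.67 to 3.02. Ptprc differed by 2.68 ± 0.20, which is 6.42-fold. Cd53, a tetraspanin of leukocytes, stood at 0.760 on the adherent, 6.18 on the non-adherent and 1.11 on the re-adherent array, a difference of 3.02 ± 0.20 into suspension. The remaining members of the group were Cd84, a receptor of the SLAM family, at 3.02, Laptm5, a lysosomal protein that controls the turnover of immune receptors, at 2.95, and Cd52, a small lipid-anchored glycoprotein, at 2.67.

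Receptors and their adaptors were also higher in suspension, with Itgam as the exception. Csf1r, the receptor for the growth factors CSF1 and IL-34, read 41.6 on the adherent, 254 on the non-adherent and 108 on the re-adherent array. The difference into suspension was 2.61 ± 0.20. Emr1, an adhesion-type receptor used as the classic marker of mouse macrophages, went from 6.26 to 55.9 and back to 11.8, so its suspension level was 8.93-fold that of adherent cells. Cd14, the co-receptor for lipopolysaccharide, read 2.53, 13.4 and 6.61. Its re-adherent level lay well above its adherent level.

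Fc receptors and their adaptors were higher in suspension too. Fcgr1, the high-affinity receptor for IgG, read 1.03 in adherent, 4.13 in non-adherent and 1.39 in re-adherent cells, a difference of 2.00 ± 0.20 into suspension. Fcer1g, the signalling chain shared by Fc receptors, read 37.1, 278 and 79.4. Tyrobp, the adaptor DAP12 used by TREM2 and related receptors, read 30.3, 195 and 54.4. The non-adherent array was the highest for each of them and the adherent array the lowest. Fcgr3, a low-affinity IgG receptor, differed by 2.90, close to the 2.90 of Fcer1g and the 2.69 of Tyrobp. Among receptors outside this system, Msr1, a scavenger receptor for modified lipoproteins, differed by 1.96, and Ms4a7, a membrane protein of macrophages, by 2.98. Ly86, the secreted partner of the Toll-like protein CD180, read 2.28, 24.7 and 7.24 and at 3.44 was level with C1qb at the top of the set.

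The integrin pair was split. Itgb2, the beta chain shared by leukocyte integrins, was higher in suspension by 2.29 ± 0.20. Itgam, the alpha chain that pairs with it to form the complement receptor Mac-1, read 39.0 on the adherent, 21.8 on the non-adherent and 35.0 on the re-adherent array by its brightest probe, a difference of -0.84 ± 0.20. That was the only gene of the 41 with the adherent array on top. Of the 3 Itgam probes, the others differed by 1.63 and 1.96 into suspension, and the brightest probe shares its transcript accession with the probe at 1.96. With the mean over probes Itgam stood at 0.92. Which probe reads Itgam was not tested, so its direction is uncertain.

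The 8 signalling and actin genes, which are expressed almost wholly in blood cells, differed by 2.30 to 3.16 into suspension with a median of 2.87. Dock2 at 3.16 and Vav1 at 2.79 encode activators of the small GTPase Rac. Inpp5d at 2.95 encodes the lipid phosphatase SHIP1, Plek at 3.01 encodes pleckstrin, a substrate of protein kinase C, and Fyb at 2.69 encodes an adaptor that links receptors to integrins. Aif1, the calcium-binding actin regulator known as IBA1, read 4.42 in adherent, 38.9 in non-adherent and 15.6 in re-adherent cells. Coro1a, the leukocyte coronin on phagosomes, read 7.86, 38.7 and 25.6, and Lcp1, an actin bundler, differed by 2.64. Aif1 and Coro1a kept more of their suspension level after re-adhesion than most of the set, as given below.

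Among effectors of the phagosome and lysosome, 9 of 10 were over 2-fold higher in suspension and Lyz1 was not. Lyz2, the lysozyme of macrophages, read 47.0 on the adherent, 285 on the non-adherent and 57.0 on the re-adherent array, a difference of 2.60 ± 0.20. Lyz1, the lysozyme best known from Paneth cells, read 128, 230 and 149, a difference of 0.85 ± 0.20. The genes are close paralogs with 1 probe each, and whether either probe also reads the other transcript was not tested. Cybb, the catalytic subunit of the phagocyte oxidase, read 0.377, 2.57 and 0.695. Its cytosolic partners Ncf1 at 2.89 and Ncf4 at 2.55 differed by about as much as Cybb at 2.77. The remaining effectors lay between 2.35 and 2.79. They were Mpeg1, a pore-forming protein of phagosomes, at 2.79, Slc11a1, a phagosomal metal transporter, at 2.61, Ctsc, a protease that activates other proteases, at 2.60, Alox5ap, which is needed for leukotriene synthesis, at 2.39, and Gpnmb, a glycoprotein of lysosomes, at 2.35.

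The C1q chains, which assemble into the recognition molecule of the classical complement pathway, were near the top of the set. C1qa read 12.8 on the adherent, 129 on the non-adherent and 48.1 on the re-adherent array. C1qb read 10.8, 117 and 38.3, and C1qc read 18.7, 184 and 62.6. The differences into suspension were 3.32, 3.44 and 3.30, with an SD over the chains of 0.08, below the software error of 0.20. The C1qc probe was printed on 9 usable spots, over which the log2 level had an SD of 0.03, 0.06 and 0.03 on the 3 arrays. Pf4, a chemokine of platelets that macrophages also make, was unlike them at 53.6, 163 and 25.8. Its difference into suspension was 1.61 ± 0.20, and it was the only member more than 2-fold below its adherent level after re-adhesion.

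Both transcription factors of the set were higher in suspension. Sfpi1 read 0.112 on the adherent, 0.966 on the non-adherent and 0.281 on the re-adherent array, a difference of 3.11 ± 0.22. With another background correction the Sfpi1 difference was smaller by more than this error. Irf8, a partner of PU.1 in monocytes and macrophages, differed by 2.80 ± 0.20. As Sfpi1 was itself a member, promoters of the set were searched for its motif. RefSeq promoter windows on GRCm38.p6, reaching from 250 bases before to 50 bases after the transcript start, were on hand for 31 of the 42 genes. The motif GAGGAAGT was found on either strand in 6 of the 31 (19.4%), against 3.69% of 27025 symbols. Its core GAGGAA, which the longer motif contains, was in 21 (67.7%) against 31.3%. The C/EBP motif TTGCNNAA was in 4 (12.9%) against 12.2%, the AP-1 motif TGANTCA in 5 (16.1%) against 8.97%, and the MiT/TFE motif CACGTG in 0 of 31 against 8.09%. Cd68 has a window and is counted in the shares of the GAGGAA, C/EBP and AP-1 motifs, although it has no expression value here. The matches to the longer motif that lie before the start are shown to set the letters beside the values of their genes, each read along the strand of its gene with the match in capitals and up to 16 bases on each side.
C1qc, chr4:136893086-136893125, minus strand: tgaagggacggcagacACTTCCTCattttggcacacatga
Ctsc, chr7:88277918-88277957, plus strand: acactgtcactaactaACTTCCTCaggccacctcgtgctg
Inpp5d, chr1:87620276-87620311, plus strand: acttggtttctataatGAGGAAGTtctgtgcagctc
Pf4, chr5:90772409-90772434, plus strand: attgcttctgcagagcACTTCCTCat
Vav1, chr17:57279073-57279099, plus strand: agttacagtcacagaaGAGGAAGTggt
The match began 195 bases before the start in C1qc, 151 in Ctsc, 20 in Inpp5d, 11 in Vav1 and 10 in Pf4. Inpp5d and Vav1 carry the motif in the sense of the gene and the others on the opposite strand. The Cd53 match lay after its start and is not shown. These genes differed by 1.61 (Pf4) to 3.30 (C1qc) into suspension. A match to letters is a description and does not show binding.

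Nearly every member read lower after return to plastic. Of the 41 genes, 40 were lower in re-adherent than in suspended cells, against 46.3% of all genes, and 38 were over 2-fold lower, against 16.3%. The median difference was -1.78, with quartiles of -2.07 and -1.56, where the median over all genes was 0.08. Over 4-fold lower were 11 genes, against 6.05% of all genes. That count depended on the scaling and was 20 to 29 under quantile normalization, under the authors' values, with no scaling or after subtraction of local medians. None was over 2-fold higher (15.6% of all genes). This comparison shares the non-adherent array with the one above, so it is no separate evidence for the suspension level.

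The order of the genes in the return step was not that of the first step. Pf4 differed most, by -2.66 ± 0.20, followed by Cd53 at -2.47 and Gpnmb at -2.44. Gpnmb read 49.6 on the adherent, 254 on the non-adherent and 46.8 on the re-adherent array, so that its re-adherent level was back at the adherent one. Coro1a at -0.60 and Lyz1 at -0.62 differed least among the genes that were lower, and Itgam stood at 0.68 by its brightest probe and -0.91 by the mean over its probes. The C1q chains, at -1.42, -1.62 and -1.56, lay closer to 0 than the median of the set.

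Re-adherent cells kept levels above those of adherent cells for most of the set. Of the 41 genes, 38 were higher in re-adherent cells than before suspension, against 56.1% of all genes, and 16 were over 2-fold higher, against 4.84%. Only Pf4 was over 2-fold lower (4.9% of all genes), 24 lay within 2-fold, and none was over 4-fold higher (1.36%). The median difference was 0.91, with quartiles of 0.57 and 1.33, where all genes had 0.06. Scaled to spike-in probes in place of the 75th percentile, the median was 0.40 with 7 genes over 2-fold higher, and the median over all genes was -0.44. Of the 38 genes, 5 then turned below 0, and the order given next held for 33 genes in place of 38. The arrays stood in the order non-adherent above re-adherent above adherent for 38 of the 41 genes, against 23.3% of all genes. Pf4 and Gpnmb had the adherent array in the middle, an order found for 15.5% of all genes.

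At the upper end of this comparison were C1qa at 1.91, C1qb at 1.83 and Aif1 at 1.81, each ± 0.20. C1qc at 1.75, Coro1a at 1.70, Ly86 at 1.67 and Ms4a7 at 1.58 came next. Csf1r at 1.37, Cd14 at 1.38 and Sfpi1 at 1.33 were also over 2-fold higher, as were Cd52, Laptm5, Inpp5d, Ncf1, Lcp1 and Fcer1g. The genes over 2-fold higher thus came from every role group, but unevenly, with 1 of 10 effectors and 3 of the 4 genes of the C1q and Pf4 group. With spike-in scaling the 7 such genes were C1qa, C1qb, C1qc, Aif1, Coro1a, Ly86 and Ms4a7. None of these was a surface gene, an effector or a transcription factor. With another background correction Sfpi1 stood at 0.99.

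At the lower end was Pf4 at -1.06 ± 0.20. Itgam stood at -0.16, Gpnmb at -0.09, Msr1 at 0.11, Lyz1 at 0.23 and Lyz2 at 0.28, each ± 0.20, followed by Fcgr1 at 0.42 and Ctsc at 0.43. The sign of the small differences depended on the scaling. With spike-in scaling Msr1 stood at -0.40, Lyz1 at -0.28, Lyz2 at -0.23, Fcgr1 at -0.09 and Ctsc at -0.08, while Gpnmb stood at -0.59 and Pf4 at -1.56. The gap between C1qa and Pf4 was 2.96 ± 0.29, between C1qa and Gpnmb 1.99 ± 0.29 and between C1qa and Lyz2 1.62 ± 0.29. Between C1qa and Aif1 it was 0.09 ± 0.29, which is within the error. Fcer1g differed by 1.1 and Tyrobp by 0.85, while the receptors Fcgr1 and Fcgr3 differed by 0.42 and 0.60.

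The spread over members addresses whether the set moved by 1 common amount. A change in the share of a single cell type with fixed expression would move its genes alike only where no other cells or transcripts add signal to their probes. Whether that holds here, and the part of cell share in these values, was not tested. In suspension the SD over the 41 differences was 0.74, against 1.36 over all genes and a software error of 0.20, and 12 genes lay over 2 errors from the median. Itgam, Lyz1 and Pf4 had the lowest differences in suspension. They were picked out after the data had been seen, so the SD without them had to be smaller. It was 0.36 over the other 38 genes, of which 9 lay over 2 errors from their median. In the return step the SD was 0.60, against 1.40 over all genes, with 15 genes over 2 errors away. Without the same 3 genes it was 0.41, with 12 such genes.

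Between re-adherent and adherent cells the members were spread more widely for the size of their shift. The SD was 0.61 around a median of 0.91, with 18 of 41 genes over 2 errors away, against an SD of 0.73 over all genes. Without Itgam, Lyz1 and Pf4 it was 0.50, with 15 of 38 genes. The interquartile range was 0.76 for the members and 0.59 for all genes, whereas in suspension it was 0.46 for the members and 1.22 for all genes. In the return step it was 0.52 and 1.24. By this range the members were tighter than all genes in both steps but not between re-adherent and adherent cells. Within role groups the median in this last comparison ran from 0.75 for effectors, 0.85 for surface genes, 0.88 for receptors and 1.07 for signalling genes to 1.13 for the transcription factors and 1.79 for the C1q chains with Pf4. The software error leaves out differences between probes in their response to the same RNA, and the part that these have in the spread was not tested beyond the genes with several probes.

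**Figure D2:**
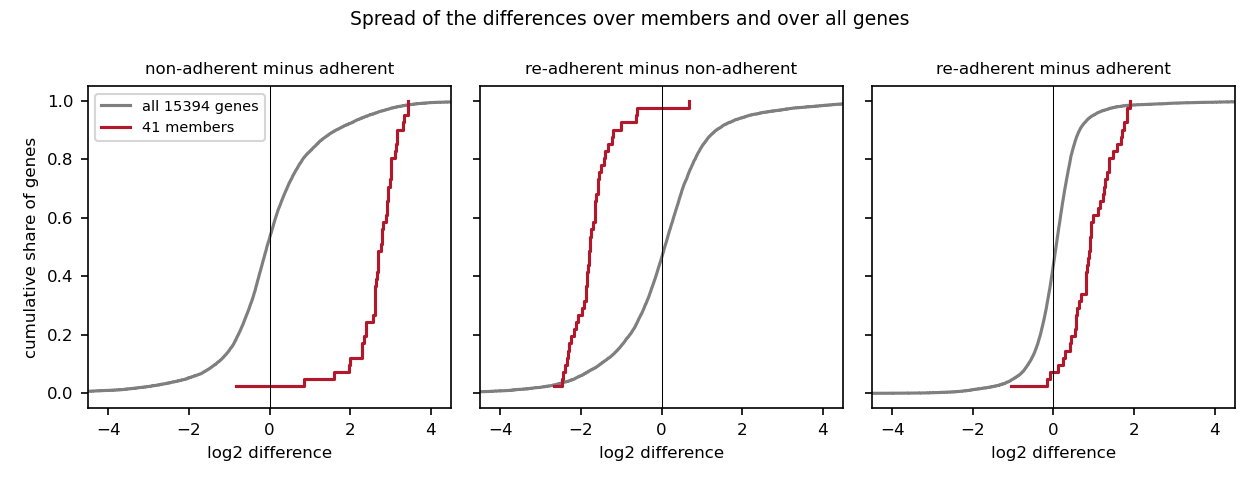
Cumulative share of genes (vertical axis) at or below each log2 difference (horizontal axis) for the 41 members (red) and all 15394 genes (grey) in the 3 pairs of arrays. The member curve is steep and far to the right in suspension (median 2.77), to the left in the return step (median -1.78), and shallower around 0.91 between re-adherent and adherent cells.

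For 11 members, 24 probes in all, the probes of 1 gene could be compared. The median SD between probes of a gene was 0.21 in suspension, 0.11 in the return step and 0.17 between re-adherent and adherent cells. Probes of 1 gene had the same sign for all of these genes but Itgam in the first and second comparisons, and for all but Itgam and Dock2 in the third. The 3 Csf1r probes differed by 3.17, 2.13 and 2.61 into suspension, a range wider than the interquartile range of the whole set. The second Dock2 probe stood at -0.30 between re-adherent and adherent cells, where the brightest stood at 0.81.

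**Figure D3:**
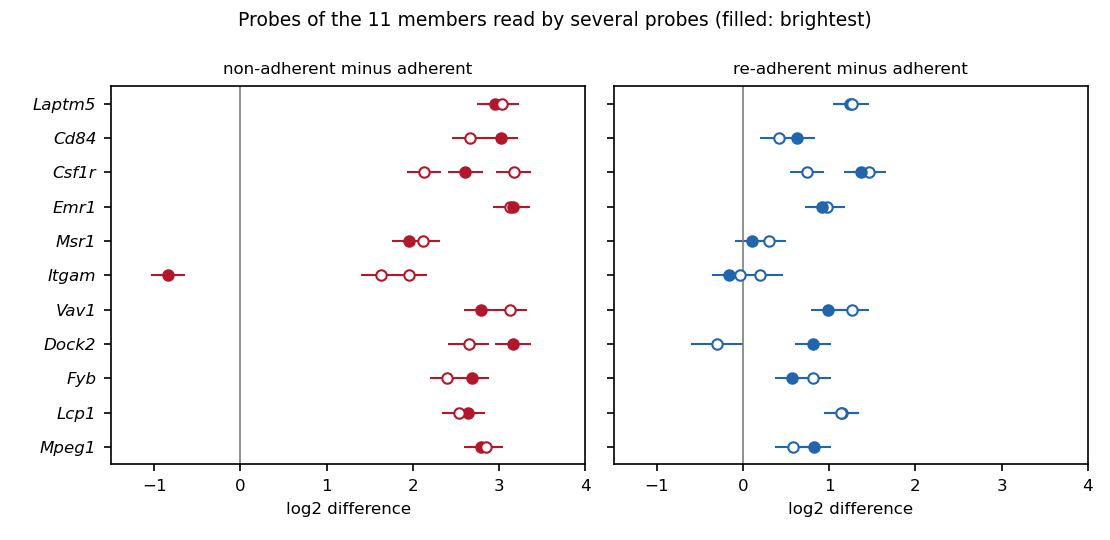
Log2 difference of every probe of the 11 members read by several probes, with the brightest probe filled and bars for the software error, for non-adherent minus adherent (left) and re-adherent minus adherent (right). Probes of a gene lie close together except for Itgam, whose brightest probe is at -0.84 and whose others are at 1.63 and 1.96 in suspension, and for Csf1r and Dock2.

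Genes that act with the members were read from lists outside the set. All 13 measured genes of Fc receptor and DAP12 signalling were over 2-fold higher in suspension, against 17.2% of all genes. Their median was 2.96. All 13 were over 2-fold lower after return to plastic, against 16.3% of all genes. Trem2, the lipid receptor that signals through Tyrobp, read 23.9 on the adherent, 194 on the non-adherent and 59.9 on the re-adherent array. The kinase Syk, which binds the phosphorylated adaptors, differed by 2.50 into suspension, and the inhibitory receptor Fcgr2b by 3.03. Between re-adherent and adherent cells the list had a median of 0.78, with Trem2 at 1.32, Fcgr2b at 0.02 and the kinase gene Fgr lowest at -1.14. The remaining oxidase genes were over 2-fold higher in suspension as well, 4 of 4 against 17.2% of all genes, with a median of 3.00. Cyba, the membrane partner of Cybb, differed by 1.47 by its brightest probe and by 1.93 by its other probe. The small GTPase Rac2 differed by 3.35 and the proton channel Hvcn1 by 3.47.

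The ligands of Csf1r went the other way from their receptor. Csf1 read 153 on the adherent, 6.82 on the non-adherent and 159 on the re-adherent array, a difference of -4.48 ± 0.20 into suspension and 4.54 ± 0.20 on return. Its other probes differed by -2.98 and -3.0 into suspension and by 2.85 and 2.83 on return. Il34, which encodes the alternative ligand, read 1.57, 0.206 and 2.69, a difference of -2.93 ± 0.21. Both ligands were lowest in suspension, where Csf1r was highest. The receptors for related factors did not move alike, with Csf2ra at 1.87, Csf2rb at 2.48 and Csf3r at -0.20, and Csf2 and Csf3 were not well above background on any array.

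Many markers of other blood cells were not measured, and single ones moved as much as the members. Of 10 T cell markers, 7 were measured, and their summed level was 7.08 on the adherent, 11 on the non-adherent and 7.79 on the re-adherent array, with Cd3d, Cd3g and Cd8a not well above background on any array. Of 7 B cell markers, Cd79b and Cd22 were measured, with a sum of 0.682, 1.46 and 0.507. Cd79a, Ms4a1, Pax5 and Blk were among those not well above background on any array. Neutrophil markers summed to 8.35, 12.7 and 7.67 over 6 measured of 11, natural killer cell markers to 3.17, 4.69 and 4.07 over 5 of 7, and mast cell markers to 0.38, 0.811 and 0.515 over 4 of 7. Camp, an antimicrobial peptide gene of neutrophils, differed by 3.28 ± 0.21 into suspension, more than the median member, and S100a8 by 1.44. Of the 6 neutrophil markers 2 were over 2-fold higher, against 17.2% of all genes, and 2 were over 2-fold lower, against 14.7%. The lower ones were Mpo at -1.51 and Ltf at -1.74, the latter well above background on the adherent array only. List medians into suspension were 0.16 for neutrophil, 0.17 for T cell and -0.55 for natural killer cell markers. The mast and B cell lists stood at 0.81 and 2.35. The B cell value rests on 2 genes, Cd22 at 1.0 ± 0.2 and Cd79b at 3.7 ± 1.23. Cd79b, and Mcpt4 of the mast cell list, counted as measured only through the non-adherent array, where they were high. Cpa3 of the mast cell list did so only through the re-adherent array. Il7r, a cytokine receptor chain of lymphocytes, differed by 2.20 and Kit by 2.16, while Cd3e stood at -0.16 and Tpsb2 at -0.55. For Cd2, Cd79b, Klrb1c and Mcpt4 only the array of suspended cells gave a signal well above background. For Cpa3 only the re-adherent array did. For dendritic cells 5 of 9 markers were measured, with sums of 162, 155 and 152. Those sums were mostly Siglech, which read 160, 143 and 148. The defining genes Flt3, Xcr1, Clec9a and Cd209a were not well above background on any array. Itgax, an integrin chain of dendritic cells and some macrophages, differed by 3.02 into suspension and Batf3 by 2.22. Siglech stood at -0.17 and Zbtb46 at -0.61. Ccr7, which was also well above background only on the non-adherent array, stood at 0.22 ± 0.54.

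Osteoclast and endothelial markers also moved with the arrays. The 7 measured osteoclast markers of 8 summed to 23.6 on the adherent, 70.8 on the non-adherent and 19.8 on the re-adherent array. Among them Atp6v0d2, a proton pump subunit, differed by 3.38 into suspension and Acp5, an acid phosphatase, by 2.00, while Ctsk differed by 0.58. Of 8 endothelial markers, 5 were over 2-fold higher in suspension, against 17.2% of all genes. In re-adherent cells 5 were over 2-fold lower than in adherent ones, against 4.9%. The summed levels were 16.7, 21.7 and 20.0, of which Kdr alone read 14.5, 11.4 and 19.1. Of 5 erythroid markers, Hba-a1 was the only one measured, at -0.06 into suspension. The part of these cell types in the member values was not tested.

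**Figure D4:**
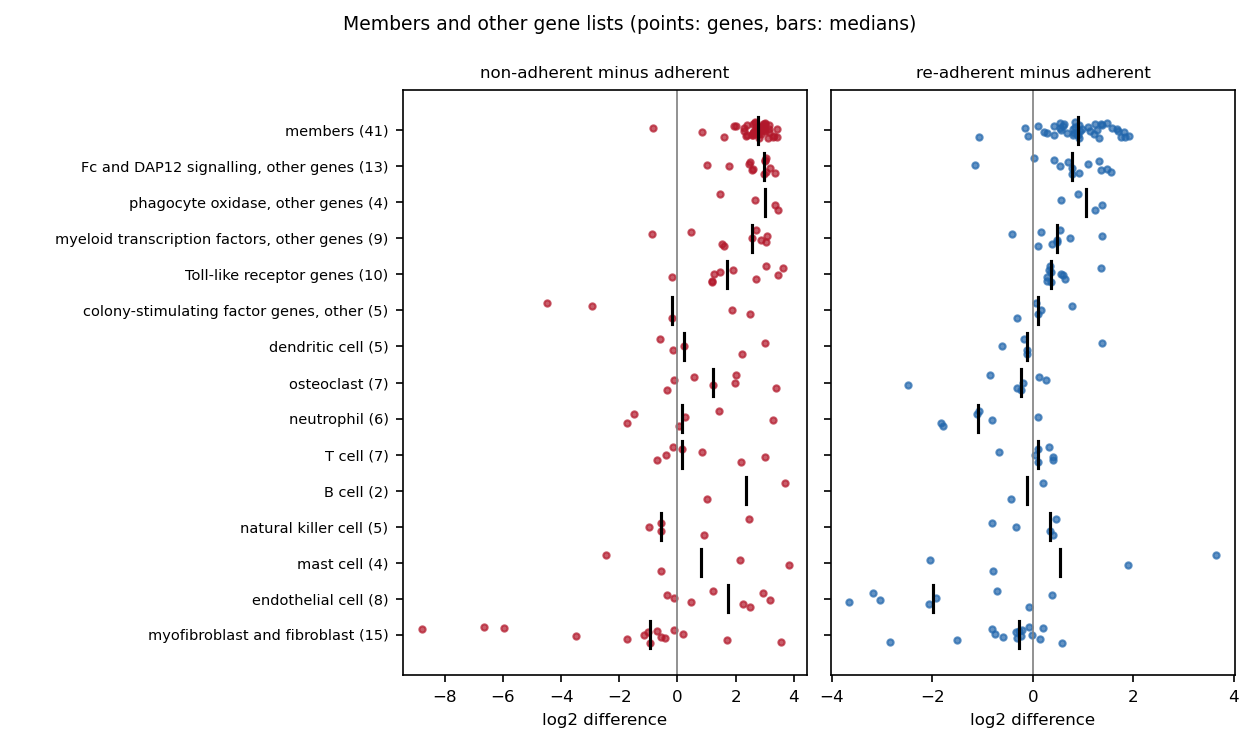
Log2 difference of single genes (points) and list medians (black bars) for the 41 members, related gene lists and marker lists of other cell types, for non-adherent minus adherent (left) and re-adherent minus adherent (right), with different scales on the horizontal axes and the number of measured genes in brackets. The medians of the members (2.77), Fc and DAP12 signalling (2.96) and oxidase lists (3.00) lie together in suspension, and the fibroblast list lies at -0.94.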

How the data were processed

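Gene expression of cardiac myofibroblasts was measured on 3 one-colour arrays, 1 per state. The authors deposited scanner output of Agilent Feature Extraction 10.10.1.1 with background-subtracted processed signal as spot intensity on a linear scale, the error and flags of each spot, and a matrix of intensity values. That matrix equalled the processed signal times a constant, 1.52 on both the adherent and the non-adherent array (medians of 60.8 and 61.8) and 1.62 on the re-adherent array (median of 50.7). It was used as an alternative.

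Here, non-uniform and outlier spots were left out, log2 processed signal was reduced by the 75th percentile of each array over non-control spots, and spots of a probe were averaged. The percentile was 651, 697 and 541. Transcript accessions were matched to RefSeq symbols of GRCm38.p6 (27229 of 55665 probes). Each gene took its brightest probe among those well above background on at least 1 array. The array design rests on another assembly, so positions are given only for RefSeq promoter windows. Normexp background correction (limma 3.58.1, R 4.3.3, offset 50) was run on median foreground and background signals in place of the mean signal first planned. Other values came from Python 3.11.15 with pandas 2.3.3. The code was tested on simulated data. With 1 array per state no p-value was computed, and the number of arrays limits the precision. Promoter sequences and motif counts came from RefSeq windows.

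Members and lists were chosen with earlier results of these data known. Levels on every array are given for members with a defining role and for the 3 largest and 3 smallest differences in each comparison. Expression of Cd68 and a planned comparison of protein sequences were not analysed here. List sums take measured genes only. Alternatives were quantile normalization, no scaling, other percentile sets, spike-in scaling, the authors' values, filters and a floor on dim probes, the mean over probes, subtraction of local medians within 10 rows and columns, and leaving out 3 genes. Some genes of the lists are not reported here by name.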

Additional observations from a re-analysis of the deposited data

How the results depend on the processing

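The 11 alternatives of background, scaling, filter, probe choice and position kept the direction of the median of the set in all 3 comparisons. The medians ran from 2.32 to 2.96 in suspension, from -2.15 to -1.74 on return and from 0.40 to 0.92 between re-adherent and adherent cells. The 0.92 came from a further alternative, the set without Itgam, Lyz1 and Pf4. The median of all genes itself moved with the scaling, to -0.51 in suspension and -0.44 between re-adherent and adherent cells with spike-in scaling, and to -0.28 on return with no scaling. Relative to it, which takes out any constant per array, the medians of the set lay between 2.72 and 2.98, between -2.05 and -1.84 and between 0.72 and 0.85. On return the median was -1.99 with quantile normalization, -2.14 with no scaling, -2.05 with the authors' values and -2.15 after subtraction of local medians, and 20, 27, 23 and 29 genes in that order were over 4-fold lower, where the reported value was 11. Spike-in scaling gave a median of 2.32 in suspension, with 1 gene (Itgam) over 2-fold lower, and 0.40 between re-adherent and adherent cells, with 7 genes over 2-fold higher. The last median was 0.64 with no scaling. Signs changed there with spike-in scaling for Fcgr1 (-0.09), Ctsc (-0.08), Msr1 (-0.40), Lyz1 (-0.28) and Lyz2 (-0.23). Msr1 also changed sign with no scaling (-0.16), the authors' values (-0.07) and local medians (-0.08), and Lyz1 with quantile normalization (-0.12) and no scaling (-0.04). With the mean over probes Itgam stood at 0.92 in suspension, -0.91 on return and 0.01 between re-adherent and adherent cells. The order non-adherent above re-adherent above adherent was counted for 33 to 39 genes. Leaving out Itgam, Lyz1 and Pf4, an alternative chosen after the data had been seen, lowered the SD over members in suspension from 0.74 to 0.36. The cause of these shifts beyond the scaling constants was not tested.

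No paired analysis was possible because there is only 1 array for each state, and likewise no replicate could be left out. Local medians of the spots around the members ran from -0.36 to -0.11 in suspension, from 0.14 to 0.57 on return and from 0.04 to 0.37 between re-adherent and adherent cells. All members were well above background on all arrays, so none of their values is a bound. The background correction still changed the size of some differences. With normexp correction Sfpi1, Dock2, Cybb and Cd53 differed less into suspension, by more than the software error. The same held for Sfpi1 and Dock2 on return. Between re-adherent and adherent cells Sfpi1 stood at 0.99 in place of 1.33, and so was no longer over 2-fold higher. The size of the Sfpi1 differences therefore depends on the background correction, while their direction did not change.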

Other observations

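Myeloid transcription factors outside the set were mostly higher on the non-adherent array. Of 9 measured, 7 were over 2-fold higher in suspension than before it, with a median difference of 2.56, where 17.2% of all genes were. Ikzf1, a zinc finger factor of blood cells, differed by 3.07, Maf by 3.06 and Cebpa by 2.69. Cebpb, which many other cells express, differed by 0.46, and Runx1 by -0.86. On the re-adherent array the median of the list stood 0.49 above the adherent one and Maf stood at 0.49 ± 0.20. Ikzf1 stood at 1.39 ± 0.26, from low levels of 0.0656 on the adherent and 0.172 on the re-adherent array. Sfpi1 was also over 2-fold higher, but stood at 0.99 with normexp correction and at 0.82 with spike-in scaling.

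Toll-like receptor genes, which encode sensors of microbial products and their signalling partners, shifted less evenly than the set. Of 10 measured, 9 were over 2-fold higher in suspension, against 17.2% of all genes, with a median of 1.69. Tlr2, a sensor of bacterial lipoproteins, read 0.948 on the adherent, 11.8 on the non-adherent and 2.45 on the re-adherent array, a difference of 3.63 ± 0.20. Tlr8 differed by 3.45 ± 0.28. Tlr4, the lipopolysaccharide receptor that works with Cd14, differed by 1.90 ± 0.20, and the shared adaptor Myd88 by 1.19 ± 0.20. Tlr9, a sensor of DNA, differed by -0.20 ± 0.20. Between re-adherent and adherent cells only Tlr2 of the list was over 2-fold higher, at 1.37 ± 0.20, against 4.84% of all genes.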
